A study of Homo sapiens with 6 samples.

Results

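The replication origin and replisome genes are 47 genes whose proteins mark replication origins, load and start the replicative helicase, and copy the DNA behind it. They were taken by symbol from a table of 59050 entries, and each of the 47 had an entry. The measurements are bulk RNA-seq levels in TPM, a unit that scales each library to one total and corrects for transcript length, from human foreskin fibroblasts labelled HFF. The 4-OHT group, 3 libraries, received 100 nM 4-hydroxytamoxifen, which switches on an introduced fusion of the oestrogen receptor with oncogenic H-RAS (ER:RAS (G12V)), and was harvested a week later as cells in oncogene-induced senescence. The DMSO group, also 3 libraries, carries the vehicle's label. The cells were infected at about passage 18 with virus packaged in HEK293T cells and selected with 200 µg/ml neomycin before 4-hydroxytamoxifen was added, and the labels do not say how many resistant clones a library holds.

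As background, an origin is first bound by the origin recognition complex (ORC). With CDC6 and CDT1, ORC loads rings of MCM2 to MCM7 onto DNA, a step called licensing, and geminin (GMNN) blocks CDT1 once DNA synthesis has begun. The kinase CDC7 with its activator DBF4 then helps CDC45 and the GINS complex to join MCM2 to MCM7 as the active helicase, behind which polymerases, the sliding clamp PCNA and RPA copy the strands. Many of these genes are known targets of E2F transcription factors and are transcribed most strongly in cells about to enter or passing through S phase, a phase that senescent fibroblasts no longer enter.

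In the 4-OHT libraries 46 of the 47 genes fell and none rose. The median log2 fold change was -1.63, against -0.09 over the 15272 genes tested. All values below are 4-OHT relative to DMSO, with fold changes on the log2(TPM + 1) scale, which understates changes of low genes, and a gene is said to have risen or fallen where limma's adjusted p was under 0.05. Among all genes tested 29.9% fell and 19.8% rose by the same test, 49.6% in all. A fall of at least 1 log2 unit was seen in 38 of the 47, against 8.21% of all genes tested. Unadjusted p-values under 0.05 also gave 46 lower and 0 higher. All 47 passed the filter on low values.

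The libraries of the groups did not overlap for 46 of the 47 genes, with every 4-OHT value below every DMSO value, against 35.2% of all genes tested that lay below in this way. Summed over the 47 genes the level was 759 to 764 TPM in the 4-OHT libraries and 2023 to 2083 TPM in the DMSO libraries, so that 37.2% of the DMSO sum was present. In 25 genes less than 30% of the DMSO mean was present, and in 9 more than 50%. A smaller number of replicating cells and less RNA per cell cannot be told apart in bulk samples.

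**Figure D1:**
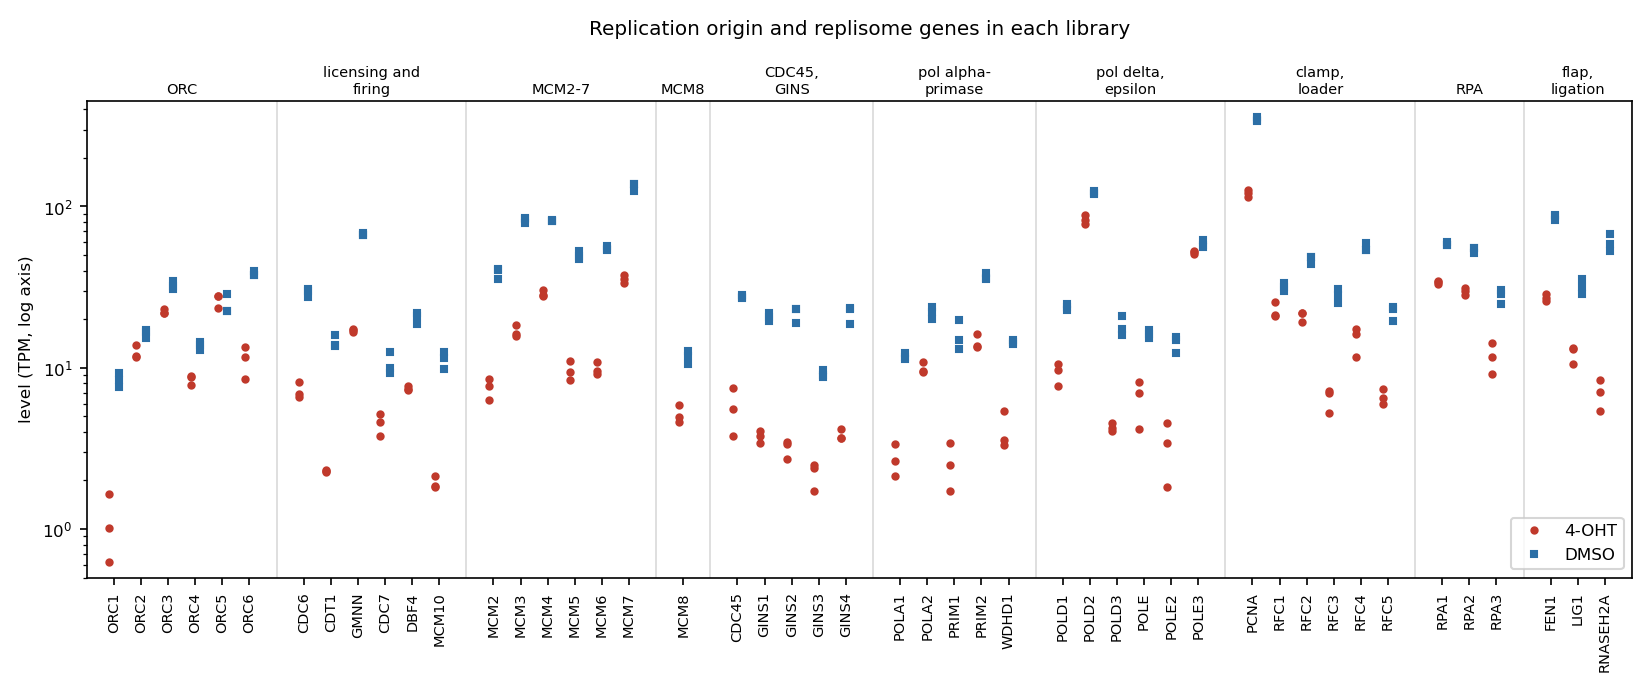
Level of each of the 47 genes in every library (TPM, log axis), in order of role; red circles are the 3 4-OHT libraries and blue squares the 3 DMSO libraries. For every gene but ORC5 the red circles lie below the blue squares.

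For the state of the libraries, the first principal component of all tested genes held 75.5% of the variance. HRAS, whose entry cannot separate the introduced from the native transcript, was at 1316, 1305 and 1222 TPM in 4-OHT and at 942, 908 and 956 TPM in DMSO. The proliferation marker MKI67 averaged 5.17 ± 0.38 TPM in 4-OHT and 34.1 ± 1.29 TPM in DMSO (SD, n = 3 each). Fibroblast markers summed to 20703 to 21234 TPM in 4-OHT and 21900 to 22607 TPM in DMSO, 6 of the 10 lower and 3 higher. The list of keratinocyte and epithelial markers moved with the groups, with 4 lower, none higher and 1 not called of the 5 of its 10 genes that passed the filter on low values, with sums of 134 to 162 TPM in 4-OHT and 467 to 482 TPM in DMSO. KRT18, KRT19, KRT8 and KRT10 carried those sums, and KRT5, KRT14, KRT1, TP63 and CDH1 were under 0.1 TPM in every library. Markers of smooth muscle and pericytes summed to 125 to 133 TPM in 4-OHT and 83.8 to 90.9 TPM in DMSO, with RGS5 and NOTCH3 higher and MYH11 and DES under 1 TPM throughout. Endothelial markers reached 1.38 to 1.87 TPM in 4-OHT and 2.54 to 2.8 TPM in DMSO, melanocyte markers 6.51 to 6.82 TPM and 8.59 to 9.55 TPM, and immune markers 59.7 to 67.3 TPM and 60.1 to 90.5 TPM. The part of these other markers in the results was not tested.

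The origin recognition complex split. ORC1 and ORC6 fell steeply, ORC2, ORC3 and ORC4 fell moderately, and ORC5 did not pass the test. The 6 subunits had a median log2 fold change of -0.57, with 5 lower and none higher. ORC1, the subunit that in human cells comes and goes with the cell cycle, was read at 0.620, 1.02 and 1.65 TPM in 4-OHT and at 8.41, 9.32 and 7.63 TPM in DMSO. Even the highest 4-OHT library lay far below the lowest DMSO library. Its log2 fold change was -2.20 (SE 0.198, adjusted p = 0.000106), with 13.0% of the DMSO mean present.

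ORC6, the smallest subunit, was at 8.47, 13.4 and 11.6 TPM in 4-OHT and at 39.8, 37.8 and 37.8 TPM in DMSO (log2 fold change -1.72, SE 0.148). ORC2, ORC3 and ORC4 belong to the stable core of the complex, and their 4-OHT means stood at 75.6%, 68.8% and 62.1% of DMSO. The log2 fold change of ORC2 was -0.38 (adjusted p = 0.0128), a call that was lost under quantile normalization (-0.24, adjusted p = 0.0693; 0.00846 to 0.0693 over the alternatives). ORC5, also of the core, was at 27.8, 23.4 and 27.9 TPM in 4-OHT and at 22.4, 22.6 and 28.5 TPM in DMSO. These values overlap, and the log2 fold change was 0.11 (SE 0.116, adjusted p = 0.484; 0.130 to 0.789 over the alternatives).

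Many of the members are known targets of E2F factors, and the members changed to differing degrees. Upstream sequence is therefore printed for the genes that changed most and least in ORC and in CDC45 with GINS. It is also printed for those in polymerases delta and epsilon and in the clamp with its loader. Sequence is further printed for the MCM subunit that changed most, and for CDC6 and CDT1. Each is the 120 bases before the RefSeq start (GRCh38.p14), 5′ to 3′ on the gene's strand, and capitals mark an E2F-type word, which is TTCCCGC in its first form, TTCGCGC in its next, then TTGCCGC and lastly TTGGCGC, each searched on both strands. A word in this sense is a match of letters and not a measured binding site, and its link to the changes was not tested. Close variants of the words were not searched, so a sequence without a word may still hold an E2F site. Over the 250 bases before the start, 19 of the 41 members in the RefSeq table held such a word (46.3%), against 3541 of all 27305 genes in it (13.0%), where a gene counts if any of its listed starts has one. Members with and without a word were found among both large and small changes. RNASEH2A (log2 fold change -2.93) and MCM2 (-2.23) held none, nor did ORC5 (0.11) and POLE3 (-0.16). A word was held by MCM6 (-2.37) and ORC1 (-2.20), and also by ORC3 (-0.52) and RPA1 (-0.77). The promoters of the members were also richer in G and C (median 64.8%, against 58.0% over all listed promoters), and the part of that in the shares was not tested. CCAAT was found in 23 of the 41 (56.1%, against 37.0% of all genes), and TTTGAA, the word of the cell cycle genes homology region, in 1 (2.44%, against 16.1%). For ORC the sequences are those of ORC1 (chr1:52404424-52404543, minus strand) and ORC5 (chr7:104208014-104208133, minus strand). ORC1 holds overlapping words on both strands, with first bases at -22 and -19 from the start, and ORC5 holds none of these words.
ORC1: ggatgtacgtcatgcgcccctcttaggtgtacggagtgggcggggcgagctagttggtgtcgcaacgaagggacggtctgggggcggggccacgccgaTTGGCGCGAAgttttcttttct
ORC5: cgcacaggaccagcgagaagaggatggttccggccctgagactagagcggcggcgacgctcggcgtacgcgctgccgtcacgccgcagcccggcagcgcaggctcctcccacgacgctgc

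Of the genes that load the helicase, trigger it or, as geminin does, restrain its loading, all 6 fell by at least 1 log2 unit (median -1.91). CDT1, which brings MCM rings to ORC, was at 2.28, 2.32 and 2.27 TPM in 4-OHT and at 13.8, 15.9 and 13.7 TPM in DMSO. The 4-OHT libraries lay close together at 15.8% of the DMSO mean (log2 fold change -2.23, SE 0.103, adjusted p = 4.14e-06). CDC6, an ATPase that joins ORC for the loading step, was at 8.19, 6.86 and 6.55 TPM in 4-OHT and at 30.7, 30.1 and 27.6 TPM in DMSO (log2 fold change -1.90, adjusted p = 7.13e-06).

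Geminin, the inhibitor of CDT1, fell as well, to 16.7, 17.1 and 17.5 TPM in 4-OHT, against 66.5, 66.6 and 68.3 TPM in DMSO. It had the smallest spread of these 6 genes relative to its change (log2 fold change -1.91, SE 0.0533, adjusted p = 5.16e-07). Inhibitor and target both fell, with 25.4% of geminin and 15.8% of CDT1 present. MCM10, which helps the loaded helicase to open DNA, fell to 1.94 ± 0.177 TPM in 4-OHT, against 11.3 ± 1.31 TPM in DMSO. The kinase and its activator fell least in the group, with CDC7 at 42.5% and DBF4 at 36.4% of DMSO (log2 fold changes -1.07 and -1.34). DBF4 overlaps SLC25A40 on the opposite strand, at 7.43 TPM in 4-OHT and 14.3 TPM in DMSO.

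CDC6 (chr17:40287759-40287878, plus strand) holds none of the exact E2F-type words in the window shown. It does hold ttggcgg, which differs from the word TTGGCGC only in its last base. CDT1 (chr16:88803669-88803788, plus strand) holds a pair of words, with first bases at -35 and -23.
CDC6: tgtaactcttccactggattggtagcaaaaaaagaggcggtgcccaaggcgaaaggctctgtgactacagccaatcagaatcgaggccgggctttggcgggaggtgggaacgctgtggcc
CDT1: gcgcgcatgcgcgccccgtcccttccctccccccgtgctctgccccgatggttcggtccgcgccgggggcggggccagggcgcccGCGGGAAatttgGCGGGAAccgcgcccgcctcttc

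The 6 subunits of the MCM ring fell together and by similar amounts, with a median log2 fold change of -2.23 and a range from -2.37 to -1.47. Their summed level was 106 to 110 TPM in 4-OHT and 431 to 446 TPM in DMSO (24.6%). MCM6 fell most, at 9.50, 9.17 and 10.9 TPM in 4-OHT and 53.6, 57.0 and 54.7 TPM in DMSO (SE 0.0796, adjusted p = 1.05e-06). MCM2, MCM3 and MCM5 had log2 fold changes of -2.23, -2.23 and -2.27, so that 19.4%, 20.4% and 19.3% of their DMSO means were present.

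MCM7 stood at 35.5, 37.8 and 33.6 TPM in 4-OHT and at 138, 125 and 137 TPM in DMSO (log2 fold change -1.87). It was the most abundant subunit in both groups, and its gene also holds the microRNAs MIR106B, MIR93 and MIR25, whose entries averaged under 2 TPM in each group. MCM4, with which MCM6 and MCM7 form the catalytic subcomplex of the ring, changed least, at 27.9, 28.1 and 30.5 TPM in 4-OHT and 81.7, 81.4 and 82.4 TPM in DMSO (log2 fold change -1.47, SE 0.0541, adjusted p = 1.48e-06). MCM8, a relative that is not part of the loaded ring and is known for its role in recombination with MCM9, was at 4.95, 4.61 and 5.84 TPM in 4-OHT and at 10.5, 11.8 and 12.7 TPM in DMSO. Its log2 fold change of -1.05 (SE 0.117) was smaller in size than that of any ring subunit.

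Upstream of MCM6 (chr2:135876444-135876563, minus strand) the shown window holds overlapping words on both strands, with first bases at -89 and -86, and a further pair lies outside it.
MCM6: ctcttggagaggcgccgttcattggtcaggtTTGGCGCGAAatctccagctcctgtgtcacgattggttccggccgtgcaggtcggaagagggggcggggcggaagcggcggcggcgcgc

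CDC45 and the 4 GINS subunits, which turn the MCM ring into a working helicase, all fell, with a median log2 fold change of -2.19. GINS2 was at 3.38, 2.73 and 3.48 TPM in 4-OHT and at 18.9, 23.1 and 23.3 TPM in DMSO, the largest fall of the 5 (-2.44, SE 0.124, adjusted p = 6.44e-06). It overlaps GSE1 on the opposite strand, which averaged 37.5 TPM in 4-OHT and 27.3 TPM in DMSO. GINS1 and GINS4 stood at 18.1% and 17.7% of DMSO, and GINS3, the least abundant of the 5, at 24.0% (log2 fold change -1.67).

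CDC45 had the widest relative spread of the 5 in 4-OHT, at 3.80, 5.55 and 7.49 TPM in 4-OHT and at 27.2, 28.1 and 27.5 TPM in DMSO (log2 fold change -2.15, SE 0.192). Its highest 4-OHT value was still far below its lowest DMSO value. Counted with the MCM ring, the 11 helicase genes had a median of -2.23, and all 11 fell by at least 1 log2 unit.

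Upstream of GINS2 (chr16:85688955-85689074, minus strand) a word begins at -31, and upstream of the RefSeq start of GINS3 (chr16:58392351-58392470, plus strand) there is none. RefSeq and GENCODE place these starts apart, by 1119 bases for GINS2 and by 97391 bases for GINS3. The distance was 576 bases for CDT1, 246 for CDC6, 208 for POLE2 and 100 for RFC3. For the other genes with printed sequence it was at most 36 bases (ORC1).
GINS2: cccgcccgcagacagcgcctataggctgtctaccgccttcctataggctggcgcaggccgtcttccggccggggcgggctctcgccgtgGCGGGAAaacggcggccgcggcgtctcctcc
GINS3: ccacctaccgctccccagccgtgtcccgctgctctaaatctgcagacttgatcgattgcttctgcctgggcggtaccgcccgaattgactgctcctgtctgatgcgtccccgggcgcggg

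**Figure D2:**
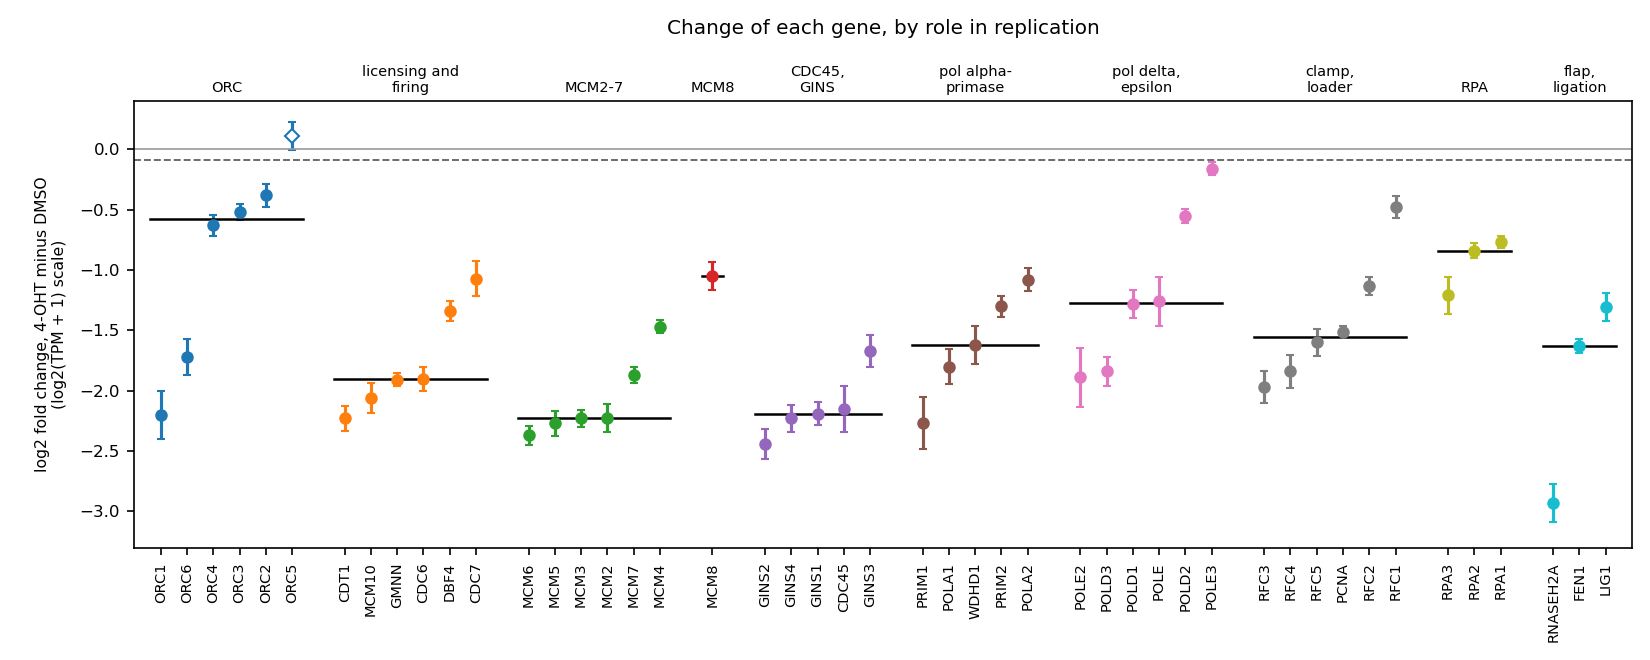
Log2 fold change of each gene (4-OHT over DMSO, log2(TPM + 1) scale, with limma's standard error), sorted within its role. Black bars are the medians of the roles, the dashed line at -0.09 is the median of all genes tested, and the open diamond is ORC5, which did not pass the test; the MCM ring and the CDC45 and GINS group lie lowest.

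Polymerase alpha and primase, which lay down the short RNA-DNA primers, fell in all 4 subunits, and so did WDHD1, which ties this polymerase to the helicase (median of the 5 -1.62). PRIM1, the catalytic primase subunit, was at 3.40, 1.71 and 2.50 TPM in 4-OHT and at 14.9, 13.1 and 19.9 TPM in DMSO. Its log2 fold change was -2.27 (SE 0.215), and the DMSO values spread more than those of any other member, with a coefficient of variation of 21.9%. PRIM1 overlaps the far more abundant NACA on the same strand, at 430 TPM in 4-OHT and 518 TPM in DMSO. PRIM2, the large primase subunit, was less affected, with 39.1% of DMSO present (-1.30).

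The catalytic subunit POLA1 stood at 23.0% of DMSO (log2 fold change -1.80) and its accessory subunit POLA2 at 44.9% (-1.08). WDHD1 averaged 4.11 ± 1.15 TPM in 4-OHT and 14.4 ± 0.431 TPM in DMSO (log2 fold change -1.62).

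The polymerases that extend the strands were uneven, from POLE2 at -1.89 to POLE3 at -0.16 (median -1.27). POLD1 and POLE, the catalytic subunits of polymerases delta and epsilon, changed by nearly the same amount, with log2 fold changes of -1.28 and -1.26 and 38.9% and 39.5% of DMSO present. POLE was at 4.18, 8.14 and 7.02 TPM in 4-OHT and at 15.4, 16.3 and 17.1 TPM in DMSO. POLD3 and POLE2, accessory subunits, fell further, to 23.8% and 22.9% of DMSO. POLE2 varied widely in 4-OHT, at 4.53, 3.42 and 1.83 TPM, against 14.8, 12.4 and 15.6 TPM in DMSO.

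POLD2, the accessory subunit that joins POLD1 to the rest of polymerase delta, was at 88.2, 82.7 and 78.0 TPM in 4-OHT and at 119, 124 and 122 TPM in DMSO. Among the 6 delta and epsilon subunits of the 47 genes it had the highest level in both groups, and its log2 fold change was -0.55 (SE 0.0558). POLE3, a histone-fold subunit of polymerase epsilon that is also part of a chromatin remodelling complex, was at 50.5, 52.7 and 52.5 TPM in 4-OHT and at 56.0, 61.7 and 57.3 TPM in DMSO. The groups did not overlap, but the change was small (SE 0.0558, adjusted p = 0.0438). Median-of-ratios scaling removed the call (-0.05, adjusted p = 0.51), as did 8 other alternatives, among them leaving out any library but DMSO replicate 1 (adjusted p from 0.0328 to 0.51 over all of them).

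Neither POLE2 (chr14:49688215-49688334, minus strand) nor POLE3 (chr9:113410676-113410795, minus strand) holds an E2F-type word in the window.
POLE2: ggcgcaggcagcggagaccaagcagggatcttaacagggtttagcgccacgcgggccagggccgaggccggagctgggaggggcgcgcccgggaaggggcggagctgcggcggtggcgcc
POLE3: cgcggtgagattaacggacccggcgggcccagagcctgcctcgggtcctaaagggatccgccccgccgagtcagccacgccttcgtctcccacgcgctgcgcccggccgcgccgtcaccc

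The sliding clamp PCNA, which tethers polymerases to DNA, was the most abundant of the 47 genes. It was at 122, 126 and 115 TPM in 4-OHT and at 343, 338 and 358 TPM in DMSO (log2 fold change -1.51, SE 0.0472, adjusted p = 7.85e-07). All 5 subunits of the loader that places it fell, and the large subunit RFC1 fell least. RFC1 was at 20.8, 21.3 and 25.4 TPM in 4-OHT and at 30, 31.6 and 33.7 TPM in DMSO (log2 fold change -0.48, SE 0.0925, adjusted p = 0.00417).

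Of the small loader subunits, which other RFC-like loaders share, RFC3, RFC4 and RFC5 stood at 22.9%, 27.0% and 29.8% of DMSO and RFC2 at 44.5%. RFC3 changed most, at 7.13, 5.23 and 7.02 TPM in 4-OHT and 28.3, 31.0 and 25.3 TPM in DMSO (log2 fold change -1.97). RFC4 was at 17.3, 11.6 and 16.1 TPM in 4-OHT and at 54.1, 53.9 and 59.0 TPM in DMSO (-1.84). RFC4 overlaps the abundant EIF4A2 on the opposite strand, at 327 TPM in 4-OHT and 383 TPM in DMSO. The clamp and its loader had a median of -1.56.

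Upstream of RFC3 (chr13:33818029-33818148, plus strand) a word begins at -55, and RFC1 (chr4:39366363-39366482, minus strand) holds none.
RFC3: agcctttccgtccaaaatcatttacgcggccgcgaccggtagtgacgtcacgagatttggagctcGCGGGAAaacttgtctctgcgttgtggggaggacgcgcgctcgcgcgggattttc
RFC1: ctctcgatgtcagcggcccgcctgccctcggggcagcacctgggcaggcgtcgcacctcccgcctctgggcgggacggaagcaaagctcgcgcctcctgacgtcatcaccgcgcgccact

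**Figure D3:**
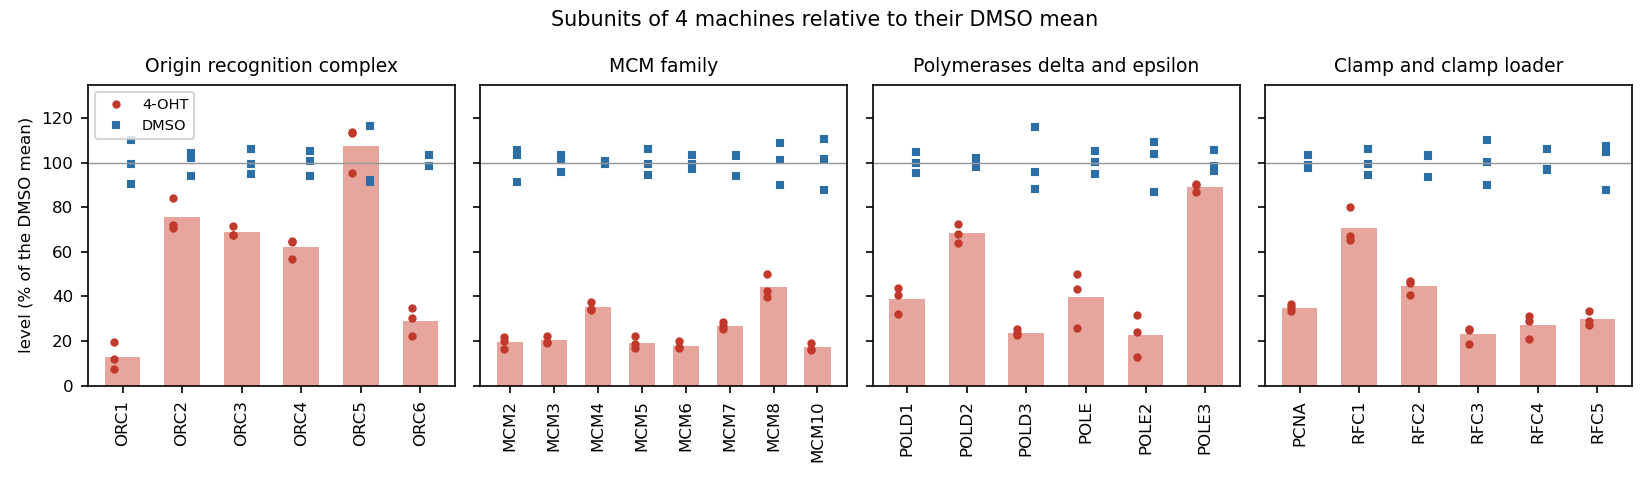
Level of each subunit as a percentage of its DMSO mean in the origin recognition complex, the MCM family, polymerases delta and epsilon, and the clamp with its loader. Bars and red circles are the mean and the 3 libraries of 4-OHT, and blue squares are the 3 DMSO libraries; ORC5 (108%), POLE3 (89.0%), ORC2 (75.6%) and RFC1 (70.8%) stand highest and ORC1 (13.0%) lowest.

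RPA, the trimer that coats single-stranded DNA in replication and repair alike, had a median of -0.84, the smallest fall of the groups after ORC. RPA1 was at 34.0, 33.1 and 34.7 TPM in 4-OHT and at 58.1, 60.0 and 57.9 TPM in DMSO (log2 fold change -0.77, SE 0.0501). RPA2 stood at 54.9% of DMSO (-0.84). RPA3, the smallest subunit, was at 14.3, 11.6 and 9.16 TPM in 4-OHT and at 24.8, 28.8 and 30.4 TPM in DMSO (-1.21). RPA3 overlaps UMAD1 on the opposite strand, at 7.54 TPM in 4-OHT and 11.1 TPM in DMSO.

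Among the genes of flap processing and ligation, RNASEH2A had the largest fall of all 47. This catalytic subunit of RNase H2, which removes ribonucleotides from DNA, was at 7.08, 5.42 and 8.45 TPM in 4-OHT and at 52.6, 58.6 and 67.1 TPM in DMSO. Its log2 fold change was -2.93 (SE 0.155, adjusted p = 7.61e-06), with 11.8% of the DMSO mean present. RNASEH2A (chromosome 19, 12806556 to 12815201, GRCh38) overlaps HOOK2 on the opposite strand, at 10.6 TPM in 4-OHT and 18.5 TPM in DMSO.

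The flap endonuclease FEN1 was at 26.0, 28.6 and 27.1 TPM in 4-OHT and at 89.1, 82.3 and 86.9 TPM in DMSO (log2 fold change -1.63, SE 0.0596). FEN1 overlaps FADS2 on the same strand, at 200 TPM in 4-OHT and 336 TPM in DMSO. LIG1, the ligase that joins Okazaki fragments, stood at 38.5% of DMSO (-1.31).

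Set side by side by role, the helicase genes had the lowest median (-2.23, 11 genes), followed by the 9 licensing genes (ORC, CDC6, CDT1 and GMNN, -1.72), the 6 clamp and loader genes (-1.56) and the 10 polymerase and primase genes (-1.29). In percentage of the DMSO sum, 23.4% was present for the helicase, 44.3% for licensing, 36.3% for clamp and loader, and 55.4% for the polymerases. Abundant genes weigh most in such sums. In 4-OHT, POLD2 and POLE3 averaged 83.0 and 51.9 TPM of the polymerases' 188 TPM. PCNA averaged 121 TPM of the 193 TPM of clamp and loader. The ranges overlap widely, since licensing runs from -2.23 to 0.11 and the polymerases from -2.27 to -0.16. No difference between roles was tested.

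Partners of 1 complex or step, and MCM8 with its relative MCM2 of the ring, were then compared within each library. This was done because the difference between members of a pair depends on that library's scaling factor only through the added 1 TPM. For 5 pairs the 4-OHT and DMSO libraries were set against each other by an exact permutation test, 2-sided, which with 3 against 3 cannot give a p under 0.1. In all 5 the groups did not overlap, and each p was 0.1, also after adjustment over the 5. The pairs were chosen with earlier results of these data known, so this separation is a description and no independent support. ORC1 minus ORC2 was -2.98, -2.87 and -2.25 log2 units in 4-OHT and -0.80, -0.78 and -1.07 in DMSO. Cells in 4-OHT thus had far less ORC1 relative to ORC2 transcript (difference -1.82, or -2.52 with 0.1 TPM added).

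RFC1 minus RFC4 was 0.25, 0.82 and 0.63 in 4-OHT and -0.83, -0.75 and -0.79 in DMSO (difference 1.36). The large loader subunit was the more abundant transcript of the pair in every 4-OHT library and the less abundant in every DMSO library. MCM8 minus MCM2 averaged -0.47 ± 0.0891 in 4-OHT and -1.65 ± 0.227 in DMSO (SD, n = 3 each, difference 1.18). POLE3 minus POLE was 3.31, 2.56 and 2.74 in 4-OHT and 1.80, 1.86 and 1.68 in DMSO (difference 1.09). The smallest shift was that of geminin relative to CDT1, at 2.43, 2.44 and 2.50 in 4-OHT and 2.19, 2.0 and 2.24 in DMSO. Its difference of 0.32 became 0.64 with 0.1 TPM added and 0.15 under quantile normalization. As a plain ratio of TPM, geminin over CDT1 was 7.32, 7.34 and 7.72 in 4-OHT and 4.83, 4.19 and 4.98 in DMSO.

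**Figure D4:**
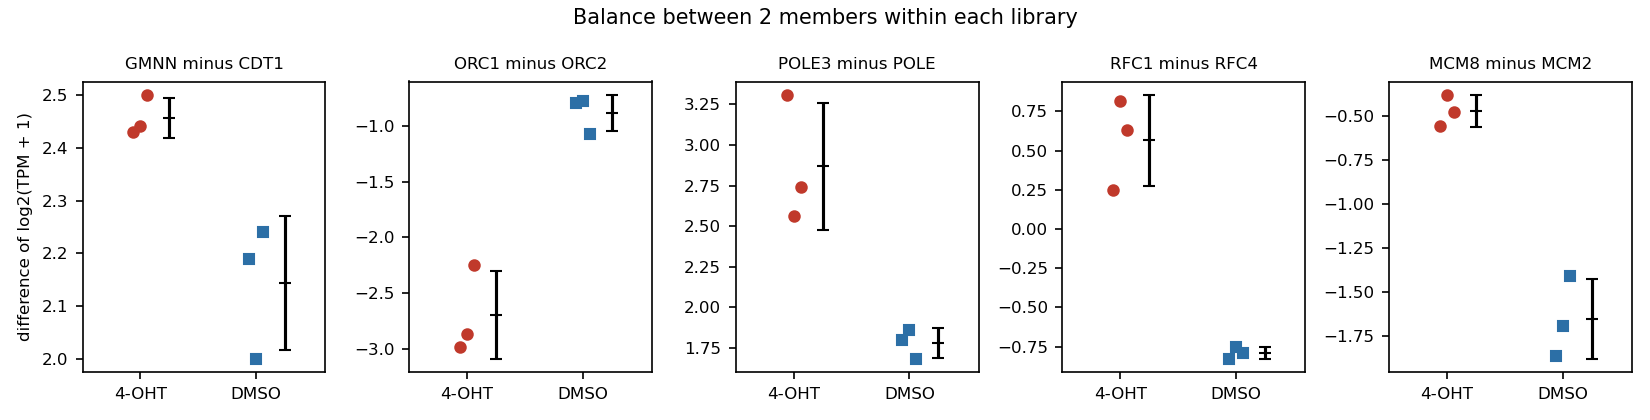
Difference of log2(TPM + 1) between members of 5 pairs in each library, with mean and SD as black bars; each panel has its own vertical axis. In each panel the 3 4-OHT libraries (red circles) lie wholly above or, for ORC1 minus ORC2, wholly below the 3 DMSO libraries (blue squares).

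Outside the 47, a list of 42 other replication genes was examined. By limma 34 of them fell, 3 rose and 5 did not pass the test (median -1.15). Of 16 genes of origin firing and its cofactors 13 fell, 1 rose and 2 did not pass the test. Largest was the fall of the checkpoint mediator CLSPN (2.49 ± 0.319 TPM in 4-OHT and 11 ± 0.705 TPM in DMSO, SD, n = 3 each). DBF4B, another activator of CDC7, stood at 24.8% of DMSO, and CDC25A, the phosphatase that activates CDK2, at 25.4%.

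Of 20 partners of the replisome and clamp 16 fell, 2 rose and 2 did not pass the test (median -1.29). TOP2A, which untangles replicated DNA, was at 17.2, 18.5 and 17.1 TPM in 4-OHT and at 111, 127 and 123 TPM in DMSO (log2 fold change -2.70, adjusted p = 3.17e-07). PCLAF, a PCNA-binding protein, was at 25.1, 9.89 and 14.7 TPM in 4-OHT and at 91.9, 89.4 and 85.1 TPM in DMSO. CHAF1B, of the histone chaperone that follows PCNA, stood at 16.3% of DMSO.

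The 3 that rose are named here after their values were seen. TOP1, which relaxes DNA in transcription as well as ahead of forks, was at 142, 147 and 148 TPM in 4-OHT and at 95.5, 102 and 100 TPM in DMSO (log2 fold change 0.55, adjusted p = 5.71e-05). POLD4, a small subunit of polymerase delta, was at 86.2, 94.2 and 74.7 TPM in 4-OHT and at 64.8, 58.5 and 52.3 TPM in DMSO (0.53, adjusted p = 0.00522), whereas POLD1, POLD2 and POLD3 fell. LRWD1, a protein that binds ORC, was at 28.4, 36.2 and 26.4 TPM in 4-OHT and at 21.9, 20.5 and 20.6 TPM in DMSO (0.50, adjusted p = 0.0103). The LRWD1 call was lost with no filter on low values (adjusted p = 0.0507).

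In the list of cyclins and kinases that drive S phase, which also holds SKP2 (named here only for that), 5 of 6 genes fell. Cyclin A2 (CCNA2) stood at 14.4% of DMSO, CDK1 at 18.1% and cyclin E2 (CCNE2) at 17.2%. Cyclin E1 (CCNE1), the exception and named for that after its values were seen, was at 13.5, 15.3 and 15.3 TPM in 4-OHT and at 14.3, 12.2 and 14.4 TPM in DMSO (log2 fold change 0.10, adjusted p = 0.430).

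E2F factors, the RB family and their partners were mixed, with 11 of 19 lower, 2 higher and 6 that did not pass the test (median -0.55). MYBL2, a transcription factor of the cell cycle, stood at 13.8% of DMSO and FOXM1, another, at 21.9%. E2F1, an activator of replication genes, was at 5.13, 2.78 and 2.95 TPM in 4-OHT and at 17.4, 16.8 and 16.8 TPM in DMSO (log2 fold change -2.0, adjusted p = 0.000127). The 2 that rose were repressors of the family, named after their values were seen. E2F7 was at 38.1, 38.9 and 39.9 TPM in 4-OHT and at 17.2, 18.4 and 17.4 TPM in DMSO (1.10, SE 0.0601, adjusted p = 9.00e-06). E2F6 averaged 15 ± 1.56 TPM in 4-OHT and 11 ± 0.641 TPM in DMSO (0.41, adjusted p = 0.0116). E2F8, a close relative of E2F7 and likewise a repressor, also named after its values were seen, fell, at 0.117, 0.147 and 0.0338 TPM in 4-OHT and 2.88, 2.36 and 2.31 TPM in DMSO (-1.67, adjusted p = 0.000203).

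**Figure D5:**
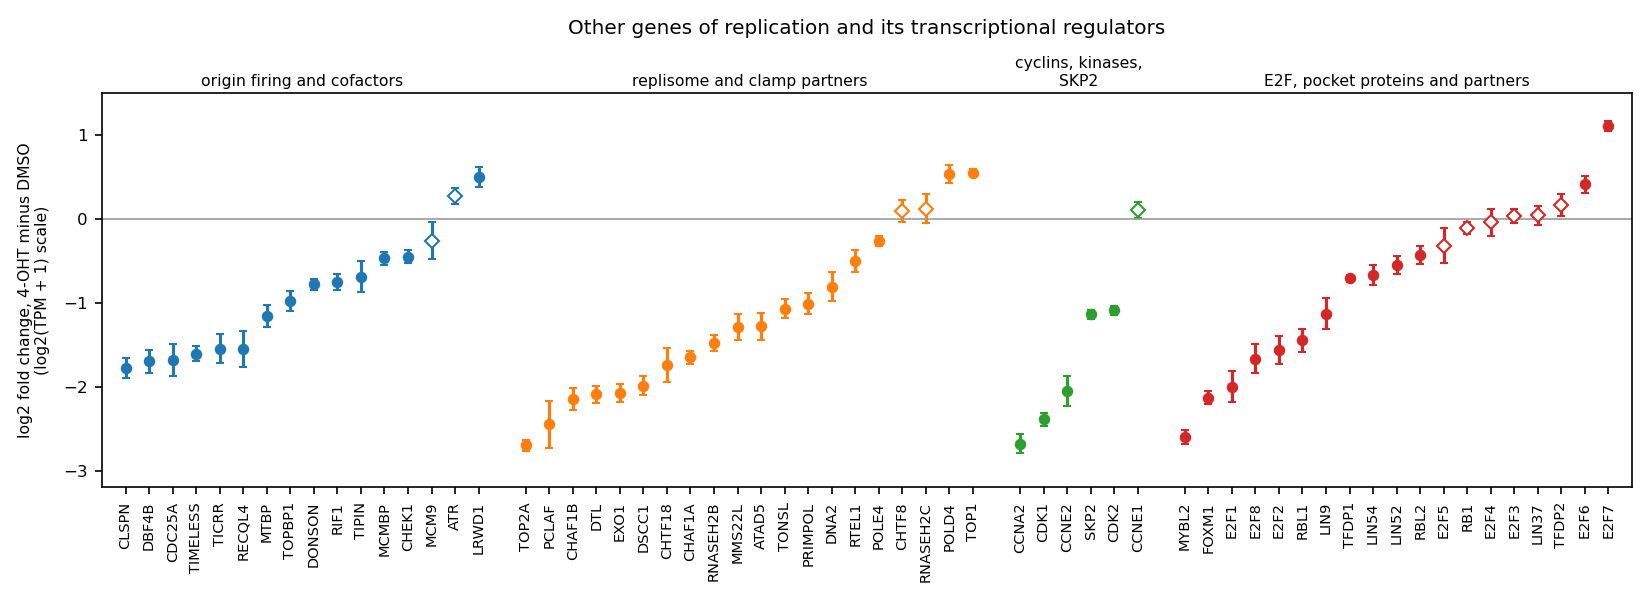
Log2 fold change (4-OHT over DMSO, log2(TPM + 1) scale, with limma's standard error) of 42 other replication genes in 3 lists and of 19 E2F, RB family and partner genes. Open diamonds did not pass the test; most genes lie below 0, and LRWD1, POLD4, TOP1, E2F6 and E2F7 are the filled circles above it.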

How the data were processed

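The authors deposited RNA-seq levels as TPM for 59050 entries named by symbol. Each of the 6 libraries sums to between 998367 and 998843. The submitters' processing notes list Trim Galore 0.6.6, STAR 2.2.1, StringTie and GRCh38. Per the labels' protocols, 1 µg of total RNA went into each KAPA library. Not given in the sources used here are the annotation, the setting for strand and any scaling between libraries. Reads of overlapping genes therefore cannot be told apart. The column of DMSO replicate 3 also holds deposited TPM, with 1 value slightly below 0 that was set to 0. TPM keep no read depth, so no detection limit was computed.

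Groups were compared on log2(TPM + 1) with limma (version 3.58.1, R 4.3.3), using lmFit and eBayes with its trend option, 2-sided and without covariates. A gene entered where its mean over the libraries reached 1 TPM, and Benjamini-Hochberg adjustment ran over all 15272 such genes. The fit was tested on simulated data. Whether replicates were separate cultures is not stated in the labels, so the spread behind each p-value may be technical. Alternatives changed the pseudocount, the filter, the scaling (median of ratios, quantile), the variance trend, a replicate block and the set of libraries.

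The members, lists, pairs and rules were chosen with earlier results of these data known. All 47 members may be named, and of each other list of replication and E2F genes the 3 largest changes past the threshold. Apart from state checks, cell type markers and overlapping genes, genes named outside this rule are marked as such. Overlapping genes are given above for some members only. Others on the opposite strand include WSB2 with RFC5 (84.6 TPM in 4-OHT and 87.4 TPM in DMSO). TMEM258 overlaps FEN1 (120 and 142 TPM) and TPRA1 overlaps MCM2 (31.5 and 38.6 TPM) in the same way. Positions come from GENCODE 29 and promoters from RefSeq (GRCh38.p14), which held 41 of the 47. Promoters are shown for the largest and smallest change in 4 groups, for the largest in the MCM ring, and for CDC6 and CDT1. MCAM, of the pericyte markers, is not analysed here. Python 3.11.15, pandas 2.3.3, numpy 2.4.6 and matplotlib 3.10.9 were used.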

Additional observations from a re-analysis of the deposited data

How the results depend on the processing

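Of 610 repeats of the single results of the 47 genes under other settings, 600 kept their direction and their side of the threshold, and the other 10 are those of POLE3 and ORC2 given above. The number of members lower was 45 or 46 under every alternative and the number higher 0. Over all genes the split depended on the scaling, with 3018 higher and 4561 lower as deposited, 4040 and 3579 under median-of-ratios scaling, and 3649 and 3612 under quantile normalization. Median-of-ratios scaling moved all log2 fold changes by a median of 0.113.

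The median of the 47 was -1.51 under median-of-ratios scaling, -1.53 under quantile normalization and -1.80 with a pseudocount of 0.1, and -1.69 to -1.56 on leaving out a library. For licensing and firing regulators these 3 settings gave -1.79, -1.80 and -2.0, for the MCM ring -2.12, -2.14 and -2.32 (-2.24 to -2.15 on leaving out a library). CDC45 with GINS gave -2.02 under quantile normalization and -2.44 with a pseudocount of 0.1. Median-of-ratios scaling gave -1.44 for the clamp and loader and -0.73 for RPA. A smaller pseudocount gives larger changes of low genes by construction, and the shift under median-of-ratios scaling is close to that of all genes. Under quantile normalization the shift differed between genes. GINS3 went from -1.67 to -1.44 and PCNA from -1.51 to -1.53, while the median of all genes tested went from -0.09 to 0.01.

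Same-numbered libraries showed no shared deviation from their group means, with correlations of 0.0475, 0.00549 and 0.00664. The labels do not say whether replicates were paired, and so few libraries cannot settle it. With the replicate block 45 members were lower, against 46 without it, and 2819 genes were higher and 4246 lower in all. In the block fit POLE3 was not called (adjusted p = 0.0631).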

Other observations

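The order of levels within a complex differed between the groups for some machines, as a description of mean TPM. In ORC, the 4-OHT libraries held most ORC5, then ORC3, and least ORC1, with ORC2, ORC6 and ORC4 overlapping between them. The DMSO libraries held most ORC6, then ORC3, ORC5, ORC2, ORC4 and ORC1, with no overlap between neighbours. The highest mean was 24.0 times the lowest in 4-OHT and 4.55 times in DMSO. In the MCM ring MCM7 led and MCM2 came last in both groups, with MCM7 4.74 times MCM2 in 4-OHT and 3.43 times in DMSO, while MCM6, MCM5 and MCM2 overlapped in 4-OHT and followed each other without overlap in DMSO. Among the 6 subunits of polymerases delta and epsilon within the 47 genes the highest mean, POLD2, was 25.5 times the lowest, POLE2, in 4-OHT and 8.53 times in DMSO.

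Across the 47 genes the log2 level in DMSO and the log2 fold change were nearly unrelated (Pearson r 0.03, Spearman rho 0.02), a description over genes that share the same 6 libraries. The members' median coefficient of variation was 10.7% in 4-OHT and 5.67% in DMSO, and 23 of them were under 10 TPM in every 4-OHT library, against 2 in every DMSO library.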
